A study of Mus musculus with 6 samples.

Results

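Open chromatin at the cytosolic ribosomal protein genes of mouse liver was described from ATAC-seq, which marks accessible DNA by letting a transposase insert sequencing adapters into it. A peak belonged to this set when the gene assigned to it, the one with the nearest start, carried a large-subunit (Rpl) or small-subunit (Rps) symbol or was Rplp0, Rplp1, Rplp2 or Rpsa. The rule took 193 of the 74076 peaks, at 79 of 19057 symbols on 19 chromosomes. Of these symbols 50 belonged to the large and 29 to the small subunit, and 6 were paralogs or related genes (Rpl7l1, Rpl10l, Rpl22l1, Rpl32l, Rps4l and Rps27l). There were 3 libraries of fasted and 3 of refed liver, all from male C57BL/6J mice, an inbred strain, aged 8 weeks. Fasted mice lost access to food at 10 pm and were killed 12 h later. Refed mice went without food from 10 am for 12 h, then had a sucrose-rich diet (69% sucrose, 10% fat) for another 12 h and were also killed at 10 am. Both groups had thus fasted for 12 h, at different hours of the day, so that feeding, the diet and the timing of the fast cannot be told apart.

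Each ribosome is built from a large and a small subunit, in which many different proteins are held on a scaffold of ribosomal RNA in near-equal numbers. Their genes are scattered over the genome and active in almost every cell, and their mRNAs mostly begin with a run of pyrimidines, the 5′ terminal oligopyrimidine (TOP) tract, through which the nutrient-sensing kinase mTORC1 governs their translation. In liver, feeding after a fast is known to raise the translation of these mRNAs, a step that open chromatin does not measure.

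The promoters with the most open start sites are shown, chosen by their level, to display the pyrimidine tract and the motifs counted below. Each sequence runs 5′ to 3′ on the gene's strand, from 250 bases before to 50 bases after the start in RefSeq, build GRCm38.p6, while peak coordinates below are mm9. Rps19 and Rps21 have several annotated starts, of which the first listed is printed. Capitals mark matches to the 6 motifs searched, on either strand, and the longest pyrimidine tract between 10 bases before and 50 bases after the start.

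Rpl13a (chr7:45128696-45128995, minus strand): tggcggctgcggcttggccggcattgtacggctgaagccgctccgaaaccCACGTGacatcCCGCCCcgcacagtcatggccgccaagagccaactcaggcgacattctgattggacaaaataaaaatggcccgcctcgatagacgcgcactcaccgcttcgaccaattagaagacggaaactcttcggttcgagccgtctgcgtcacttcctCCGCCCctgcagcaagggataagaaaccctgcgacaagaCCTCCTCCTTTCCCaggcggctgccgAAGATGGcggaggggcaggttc
Rps19 (chr7:24884342-24884641, plus strand): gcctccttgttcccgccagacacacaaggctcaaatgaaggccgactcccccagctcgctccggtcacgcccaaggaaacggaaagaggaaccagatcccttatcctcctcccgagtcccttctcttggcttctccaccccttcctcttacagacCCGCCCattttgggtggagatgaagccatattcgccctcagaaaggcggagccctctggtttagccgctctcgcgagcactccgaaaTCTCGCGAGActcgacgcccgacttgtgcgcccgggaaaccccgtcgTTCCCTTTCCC
Rpl15 (chr14:18270937-18271236, minus strand): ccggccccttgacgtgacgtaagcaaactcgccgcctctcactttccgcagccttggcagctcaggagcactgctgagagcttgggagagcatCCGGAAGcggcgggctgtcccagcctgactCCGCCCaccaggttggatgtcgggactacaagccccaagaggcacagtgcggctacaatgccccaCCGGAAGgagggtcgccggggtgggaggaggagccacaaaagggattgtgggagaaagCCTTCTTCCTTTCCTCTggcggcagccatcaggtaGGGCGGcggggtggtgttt
Rpl27a (chr7:109518945-109519244, plus strand): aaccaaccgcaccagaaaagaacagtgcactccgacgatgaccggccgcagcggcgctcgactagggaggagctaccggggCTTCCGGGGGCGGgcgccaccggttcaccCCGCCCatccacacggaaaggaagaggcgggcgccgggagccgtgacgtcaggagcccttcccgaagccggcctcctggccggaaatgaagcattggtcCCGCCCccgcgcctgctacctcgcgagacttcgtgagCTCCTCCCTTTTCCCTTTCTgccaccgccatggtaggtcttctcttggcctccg
Rps21 (chr2:180257129-180257428, plus strand): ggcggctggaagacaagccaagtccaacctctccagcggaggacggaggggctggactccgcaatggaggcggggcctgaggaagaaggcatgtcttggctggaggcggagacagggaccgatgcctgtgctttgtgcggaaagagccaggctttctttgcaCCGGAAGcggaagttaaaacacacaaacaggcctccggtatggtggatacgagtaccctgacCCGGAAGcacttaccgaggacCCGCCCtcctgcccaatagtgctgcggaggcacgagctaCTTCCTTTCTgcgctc
Rpl37 (chr15:5116363-5116662, plus strand): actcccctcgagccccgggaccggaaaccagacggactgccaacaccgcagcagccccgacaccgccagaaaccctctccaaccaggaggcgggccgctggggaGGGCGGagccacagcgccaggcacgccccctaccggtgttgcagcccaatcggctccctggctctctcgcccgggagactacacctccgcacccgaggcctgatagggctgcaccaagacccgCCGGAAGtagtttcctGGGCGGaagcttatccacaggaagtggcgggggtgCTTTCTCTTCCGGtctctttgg

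In the Rpl15 and Rpl27a promoters the tract lay across the annotated start, from -4 to 13 and from -4 to 16 (the first transcribed base is 1). The tract of Rpl13a spanned 3 to 16, and those of Rps19, Rps21 and Rpl37 began farther in, at 40, 35 and 29. In Rpl37 its last bases are also part of a CCGGAAG match on the other strand. Tracts that begin so far in are not shown to be TOP tracts, which begin the mRNA. Counted from the start, and taking it as the same in both annotations, each of the 6 peaks spans the whole printed window.

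A promoter was found for 59 of the 79 genes, 70 windows in all, since some genes have several starts whose windows can overlap. A tract of at least 8 C or T letters was present in 65.7% of the ribosomal protein windows, against 22.5% of 12704 windows of genes with a peak at their start and 24.2% of all 32851 windows. The ETS-type motif CCGGAAG occurred in 34.3%, against 15.2% and 8.86%. The BANP motif, a palindrome with CGCG at its centre, occurred in 10%, against 0.889% and 0.466%. AAGATGG, the core letters of YY1 sites, occurred in 15.7%, against 6.35% and 6.34%. Other features differed less from genes with an open start. The GC box GGGCGG, the letters bound by Sp1, occurred in 64.3% against 61.6%, the E-box CACGTG in 11.4% against 9.69%, and TATAAA in 11.4% against 7.27%. Across all windows these 3 shares were 35.7%, 7.15% and 13.6%. The median GC content was 58.8%, against 60.7% and 52.7%, and the median ratio of observed to expected CpG was 0.869, against 0.732 and 0.384. The tract, CCGGAAG and the BANP motif were therefore more frequent in these windows than in both reference sets, whereas GC boxes were about as frequent as at other open starts. These shares describe letters, carry no test, and say nothing of what binds there.

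**Figure D1:**
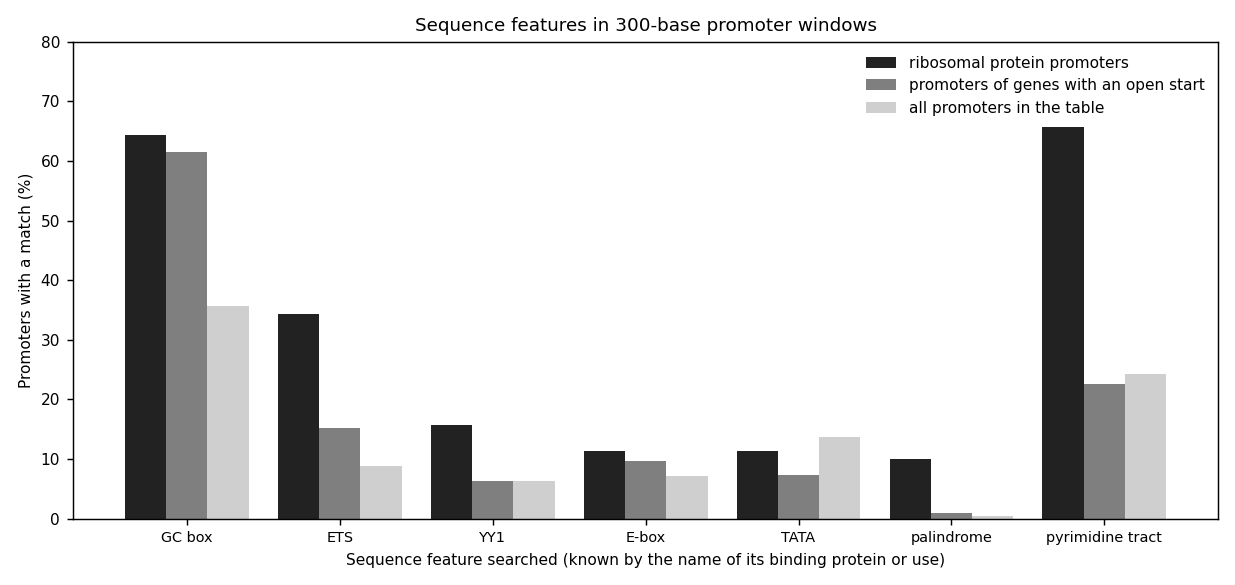
Bars give the percent of promoter windows that hold each searched feature, for the ribosomal protein genes (70 windows), for genes with a peak within 1 kb of a start (12704) and for all listed promoters (32851). The pyrimidine tract reaches 65.7% at the ribosomal protein genes against 22.5% and 24.2%, while the GC box stands at 64.3% against 61.6% for genes with an open start.

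The libraries held 3205634 to 4850613 reads in peaks, with a median of 19 to 33 reads per peak and of 113 to 151 reads at the start-site peaks of the ribosomal protein genes. No source says whether libraries came from separate mice, so p-values reflect only how far these libraries spread, which may be technical. All 7 hepatocyte marker genes had peaks, and limma called 4 of their 93. Of these, 3 within Alb were lower in refed liver (log2 changes -1.40, -1.41 and -1.01) and 1 assigned to Apoa1, in an intron of Sik3, was higher (1.18). The summed accessibility of these markers overlapped between the groups. It was 1799 to 2058 RPKM (reads per kilobase of peak, scaled by each library's total in peaks) in fasted and 1813 to 1958 in refed liver. Summed over the 5 endothelial genes it was 527 to 553 in fasted and 558 to 595 in refed liver. Called higher were a peak in an intron of Pecam1 (log2 change 1.90) and an intergenic peak assigned to Cdh5 (1.03). The latter lay at -92134 bp from the Cdh5 start and was assigned by distance alone. The summed accessibility over 3 of 6 lymphocyte genes (no peak at Cd3e or Cd79a, among others) was 126 to 135 and 103 to 113. The sums over 2 of 4 cholangiocyte genes (none at Krt19 or Krt7) were 124 to 134.0 and 134.2 to 160.0. Those over 2 of 5 macrophage genes (none at Clec4f, Cd68 or Vsig4), 43.0 to 62.4 and 47.9 to 53.2, and over 4 of 5 stellate genes (none at Des), 78.8 to 87.9 and 76.7 to 109, overlapped. The endothelial, lymphocyte and cholangiocyte sums thus did not overlap between the groups, the last by a narrow margin. Among single peaks, the groups did not overlap at 19% of all 74076. The lymphocyte and cholangiocyte sums rest on 8 peaks each. Median log2 changes over the peaks of the endothelial, lymphocyte and cholangiocyte lists were -0.03, -0.25 and 0.28, so the endothelial median did not rise with its sum. The part of these cell types in the results below was not tested, and a change in the number of cells of a type cannot be told apart from a change within them.

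The peaks fell into a compact start-site set and a scattered remainder. At 75 genes, 77 peaks were centred within 1 kb of the assigned start, a definition chosen after the data were seen. Rpl13a and Rpl36 had 2 such peaks each, and 74 of the 77 spanned the start itself. The centres lay at a median of 39 bp downstream, between -872 and 226 bp. Of the other 116 peaks, 5 lay in the body or at the end of the ribosomal protein gene itself, 35 in or at the end of another gene, and 76 were intergenic. The count per gene was uneven, since 42 symbols had 1 peak while 11 symbols held 86 peaks, led by Rps29 and Rplp1 with 15 each. At the distance limit, Rpl36 (-698 bp, mean 41.3 RPKM) and Rpl13a (-872 bp, 28.5) were just inside, and Rpl36 (-1190 bp, 40.0) and Rps4x (2168 bp, 12.4) just outside.

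The start sites of ribosomal protein genes were open in every library, at levels close to those of start sites in general. Their median was 38.2 RPKM (interquartile range 29.1 to 48.5), against 35.2 over all 14565 peaks within 1 kb of a start, of which 55.4% lay below the ribosomal protein median. Their median width was 916 bp, against 854 bp. The range was 5.86-fold, from 13.2 RPKM at Rps4l to 77.4 at Rpl13a. The medians were 35.4 RPKM at the 49 large-subunit peaks and 39.7 at the 28 small-subunit peaks. The 3 genes of the acidic stalk (Rplp0, Rplp1 and Rplp2), which recruits translation factors, had a median of 47.9, and the 4 start-site peaks of paralogs and related genes one of 32.2. Start sites of both subunits therefore covered much the same range. RPKM is per kilobase of called peak, so a level also depends on where the authors' peak edges lie.

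The 6 most open promoters were those of Rpl13a at 77.4 ± 5.02, Rps19 at 70.2 ± 3.34, Rpl15 at 68.0 ± 6.82, Rpl27a at 67.8 ± 2.93, Rps21 at 66.4 ± 4.21 and Rpl37 at 66.2 ± 5.94 RPKM (SD over 6 libraries). Rpl13a, a large-subunit protein also known in macrophages for an extra-ribosomal role in silencing inflammatory mRNAs, ranked first or second in each library, with values from 73.5 to 87.3. The others were not separated: Rps19, the gene most often mutated in Diamond-Blackfan anemia in humans, ranked between 1 and 5, and Rps21 between 3 and 9. The least open promoter-class peaks were those of Rpl4 at 20.2 ± 1.97, Rpl37a at 21.8 ± 1.86, Rpl23 at 24.2 ± 4.58 and Rpl7l1 at 24.6 ± 2.85. Their libraries ranged from 16.3 to 22.1, 20.0 to 24.1, 19.6 to 31.3 and 22.0 to 28.9 RPKM, so these neighbours overlapped one another, while none reached the range of the 6 highest. The order over the 77 peaks was alike from library to library. The Spearman correlation was 0.919 to 0.952 between fasted, 0.918 to 0.935 between refed and 0.880 to 0.943 between fasted and refed libraries, a description over peaks that share their called edges.

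**Figure D2:**
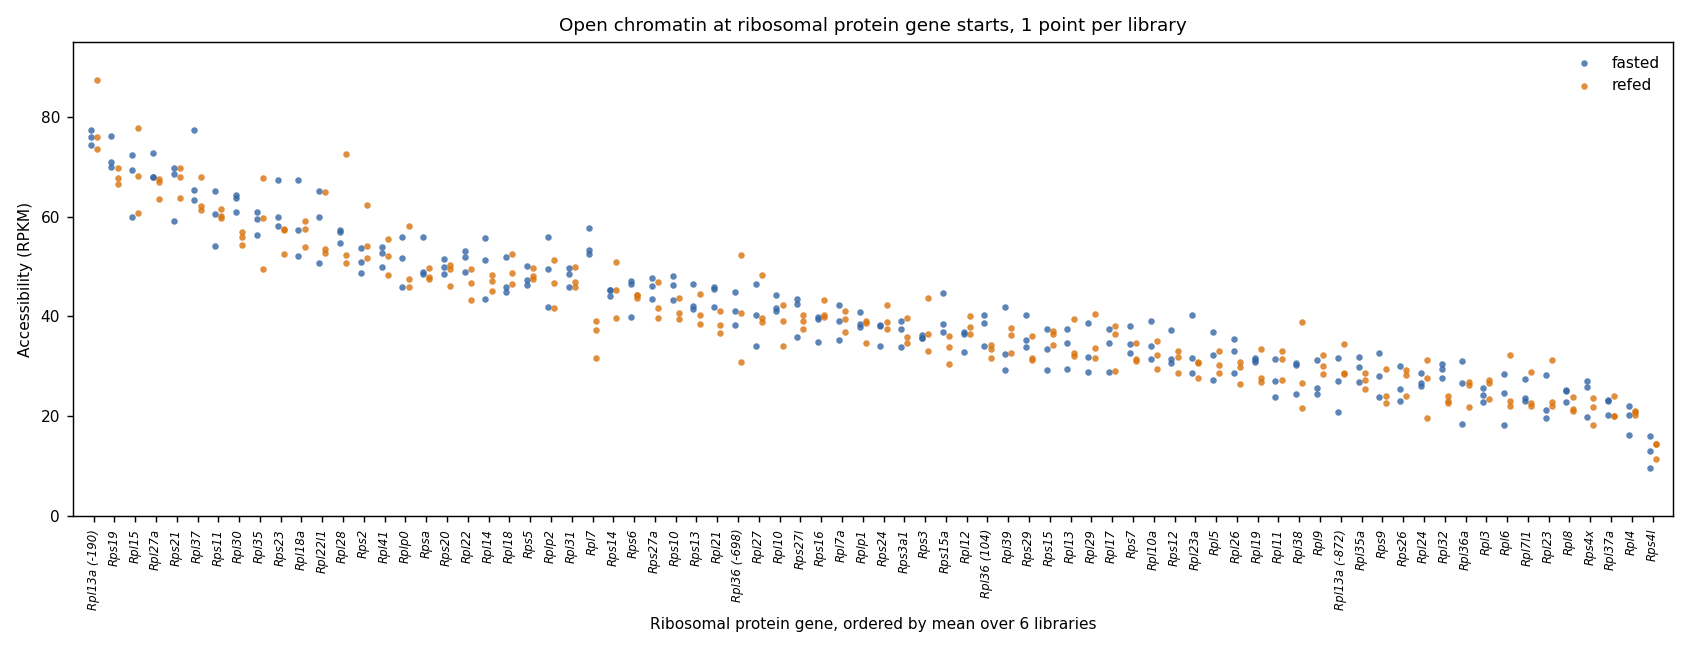
Each column is 1 of 76 start-site peaks of ribosomal protein genes and each point a library (accessibility in RPKM, fasted in blue, refed in orange), ordered by the mean over 6 libraries; numbers in parentheses give the distance in bp where a gene has 2 peaks, and 1 of the 77 peaks is not shown. Levels fall from 77.4 at Rpl13a to 13.2 at Rps4l, and colours mix at most genes, with Rpl7 the clearest separation.

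Part of these start regions are shared with another transcript. The file names another gene's transcript at 10 start-site peaks, among them Snord68 at Rpl13, Snord58b at Rpl17, Snora21 at Rpl23 and Snhg9 at Rps2, which are small nucleolar RNAs or a host of one. At Rpl4, Rpl7a, Rpl12 and Rpl35a it names the protein-coding neighbours Zwilch, Med22, Lrsam1 and Iqcg. Accessibility there cannot be assigned to either gene alone. Among the 55 genes with both a start-site peak and a promoter window, the 37 with a GC box had a median of 42.2 RPKM and the 18 without 31.1. The 42 with a pyrimidine tract had 38.6 and the 13 without 36.8. The 22 with CCGGAAG had 44.0 and the 33 without 36.8. For the other features few genes had a match. Medians with and without were 49.9 and 36.8 for TATAAA (6 genes with it) and 48.5 and 37.5 for CACGTG (5 genes). They were 36.8 and 39.0 for AAGATGG (9 genes) and 36.8 and 38.6 for the BANP motif (5 genes). These are descriptions without a test.

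In refed liver the start sites of ribosomal protein genes stood near their fasted level. They took 0.279 ± 0.0106% of reads in peaks in fasted and 0.272 ± 0.00987% in refed liver (SD, n = 3). By library the share was 0.267%, 0.285% and 0.286% in fasted and 0.265%, 0.283% and 0.268% in refed liver, so the groups overlapped. The median change was -0.02 on the log2 RPKM scale, refed minus fasted, equal to the -0.02 over all start-site peaks. From the 5th to the 95th percentile the changes ran from -0.19 to 0.13, against -0.34 to 0.42 over all start-site peaks. All start-site peaks include some with few or no reads. Over the 11779 within the read range of the ribosomal protein start sites, the changes ran from -0.29 to 0.30. In limma fitted to all 74076 peaks, at an adjusted p of 0.05, 0 of the 77 were higher and 1, at Rpl7, was lower, where 0.316% and 0.172% of all start-site peaks were called (0.487% together). At an unadjusted p of 0.05 only that peak passed, where 6.34% of all start-site peaks did. By edgeR or DESeq2 on recovered reads 0 of the 77 passed an adjusted p of 0.05, where 1.03% and 0.439% of start-site peaks did.

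The intervals give a range for the change at each start site, as far as the spread between these libraries reaches. The RPKM scale hides any difference in how much of a library fell in peaks, so they do not cover it. The 95% interval of the log2 change lay within ±0.5, which is 1.41-fold, at 66 of the 77 peaks, and within ±1 at all 77. The median half-width was 0.27, and the widest, 0.65, was at Rps4l. Without Rpl7 the intervals reached from -0.65 to 0.73. The log2 changes of the stalk genes Rplp0, Rplp1 and Rplp2 lay between -0.07 and -0.02, and those of the paralogs and related genes between -0.05 and 0.08. The medians of the large and small subunit were -0.02 and -0.03.

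The groups did not overlap at 8 start sites, all lower in refed liver, and at 0 higher, where 8.08% and 5.66% of all start-site peaks separated so. These were Rpl7, Rpl21, Rpl27a, Rpl30, Rpl32, Rps15a, Rps19 and Rps23. Apart from Rpl7 the changes were small. Rpl32 had 29.2 ± 1.44 RPKM in fasted and 23.3 ± 0.792 in refed liver (log2 change -0.32 ± 0.15 SE, limma adjusted p 0.352). Rps15a had 40.1 ± 4.13 and 33.5 ± 2.81 (-0.26 ± 0.13, limma adjusted p 0.396). The 2 most open of them, Rps19 and Rpl27a, had log2 changes of -0.09 ± 0.08 and -0.07 ± 0.08. The highest value among start sites was 0.22 ± 0.18, at the upstream peak of Rpl13a, whose groups overlapped.

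Rpl7, a large-subunit protein, had the only start-site peak with a call. The peak (chr1:16094238-16094500, mm9) covers 263 bp in intron 1 of 6, centred 145 bp into the gene, and is 1 of 3 start-site peaks narrower than 500 bp. Accessibility was 52.5, 53.4 and 57.7 RPKM in fasted and 37.3, 31.7 and 39.0 in refed libraries. Every fasted value lay above every refed value. The log2 change was -0.60 ± 0.11 (SE, limma adjusted p 0.0251). The call rests on few reads, 45 to 67 in fasted and 27 to 48 in refed libraries. It was not made by edgeR (adjusted p 0.105) or DESeq2 (0.388), nor in limma without fasted replicate 4 (0.124), refed replicate 7 (0.0775) or refed replicate 8 (0.0677), and the adjusted p ranged from 0.0194 to 0.388 over 13 alternatives. No other start-site peak of a ribosomal protein gene was called under any of them. The authors' deposited edgeR table does not list the Rpl7 peak.

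**Figure D3:**
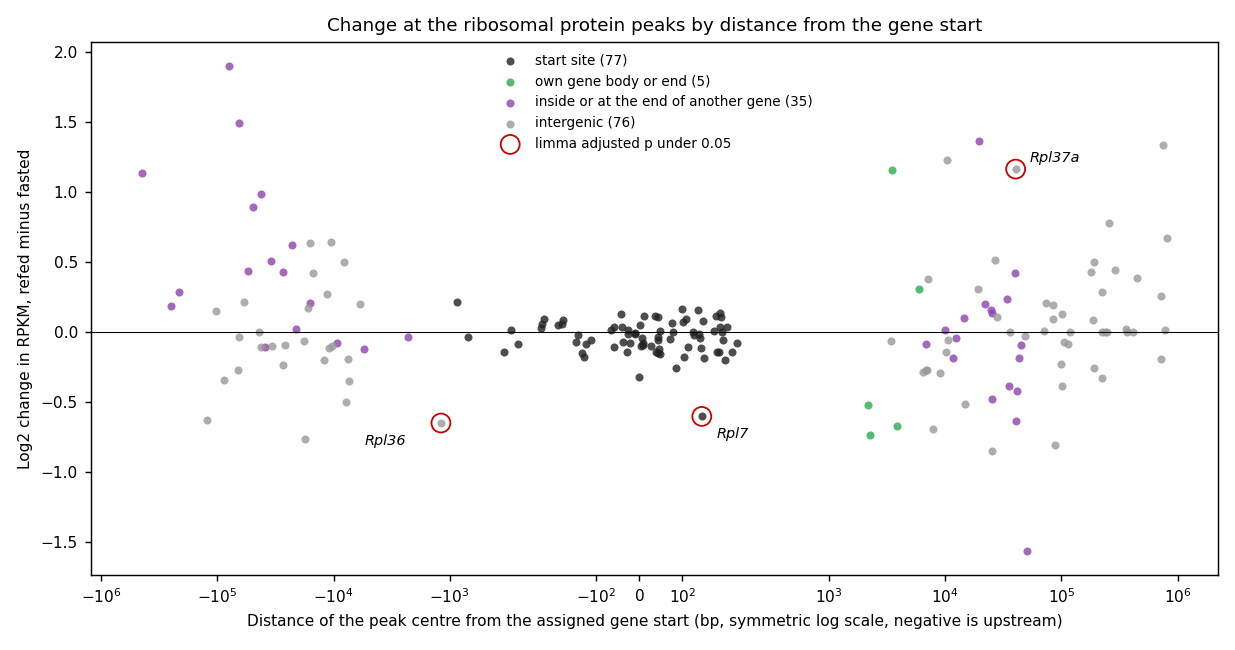
The log2 change in RPKM (refed minus fasted) of the 193 peaks is plotted against the distance of the peak centre from the assigned start, in bp on a symmetric log scale with upstream negative; colours give the place and red circles mark a limma adjusted p under 0.05. The 77 start-site peaks lie between -0.60 and 0.22, and the other 116 spread from -1.56 to 1.90.

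Over all 193 peaks, 1 was called higher and 2 lower in refed liver by limma, 1.55% together against 1.23% of all 74076 peaks. By direction the calls made 0.518% and 1.04%, against 0.802% and 0.427%. Unadjusted p was under 0.05 at 22 of the 193 (11.4%), against 14.5% of all peaks, and the groups did not overlap at 14 in the higher direction (7.25%, against 10.5% of all peaks) and 22 in the lower (11.4%, against 8.57%), 18.7% together against 19%. By edgeR 4 of 174 tested peaks passed (2.3%, against 4.01% of all), and by DESeq2 3 of 161 (1.86%, against 1.66%). In both directions together the shares were near the background or below it. All 193 entered the limma fit, 175 of them with a mean of at least 10 reads.

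The 116 peaks beyond 1 kb varied more than the start sites. Their median log2 change was 0.00, their range -1.56 to 1.90 and their median absolute change 0.257, against 0.0815 at start sites. The median standard errors were 0.29 and 0.13, and the median level 14.7 RPKM. Within 10 kb, 17 of 23 peaks were below 0 (median -0.20). Between 10 and 100 kb 34 of 63 peaks lay above 0 (median 0.01), and beyond 100 kb 23 of 30 (median 0.05). Peaks empty in every library count as above 0, since library scaling alone gives them a log2 change of 0.002. Such were 1 of the 63 and 6 of the 30. Over all peaks beyond 1 kb, 33956 of 59511 lay above 0. Of the 116, 1 was called higher and 1 lower, where 0.921% and 0.489% of all peaks beyond 1 kb were (1.41% together). Unadjusted p was under 0.05 at 21 of them, against 16.6% of all such peaks. The groups did not overlap at 14 in each direction, against 11.6% higher and 8.7% lower (20.3% together). The 4 calls of edgeR and the 3 of DESeq2 all lay here, where these tools called 4.92% and 2.07% of tested peaks.

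The called lower peak lay 1190 bp upstream of Rpl36, a large-subunit gene next to Lonp1, the mitochondrial protease gene. It (chr17:56751424-56751833) had 44.2, 54.0 and 47.7 RPKM in fasted and 26.9, 37.7 and 29.2 in refed libraries, without overlap. The log2 change was -0.65 ± 0.14 (SE, limma adjusted p 0.0472). EdgeR gave an adjusted p of 0.0524 and DESeq2 one of 0.171, and the authors' deposited edgeR table an FDR of 0.0202. Leaving out fasted replicate 3 (0.103), fasted replicate 4 (0.141), refed replicate 5 (0.124) or refed replicate 8 (0.164) ended the call, and over 13 alternatives the adjusted p ranged from 0.0326 to 0.204. The 2 start-site peaks of Rpl36 had log2 changes of -0.04 and -0.18, neither of them called.

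The called higher peak lay 40343 bp downstream of the start of Rpl37a, a zinc-finger protein of the large subunit, in an MLT1G1 long terminal repeat. It (chr1:72797918-72798437) had 9.91, 9.00 and 15.1 RPKM in fasted and 24.9, 27.9 and 21.8 in refed libraries. All 3 refed values exceeded the fasted ones. The log2 change was 1.16 ± 0.26 (SE, limma adjusted p 0.0486), and the adjusted p was 0.0103 in edgeR and 0.0381 in DESeq2. The authors' deposited edgeR table gives an FDR of 0.000973. In limma each of the 6 leave-one-out fits ended the call. The adjusted p was 0.0625, 0.0744 and 0.0569 without fasted replicates 1, 3 and 4 and 0.127, 0.157 and 0.135 without refed replicates 5, 7 and 8, and ranged from 0.0103 to 0.157 over 13 alternatives. The Rpl37a promoter, at 22.2 ± 1.65 and 21.4 ± 2.34 RPKM, had a log2 change of -0.05 ± 0.18.

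**Figure D4:**
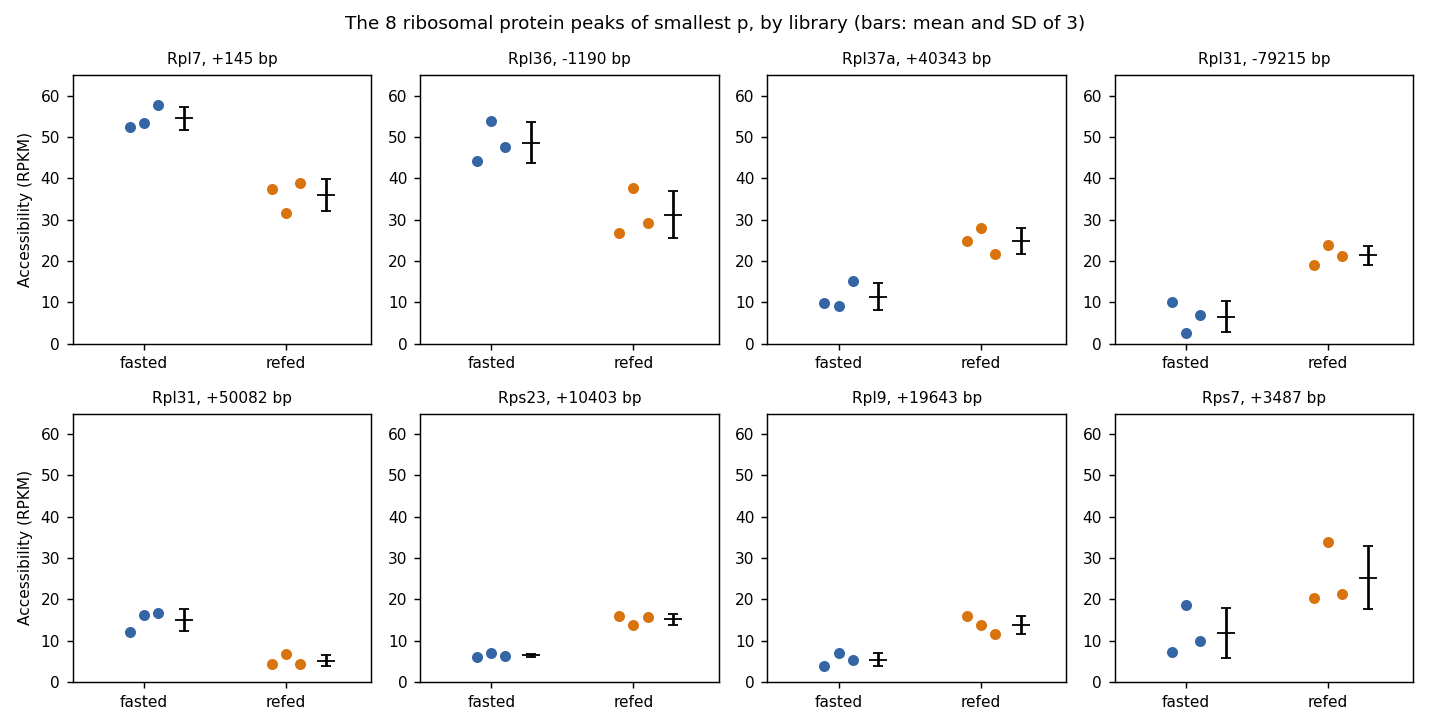
Each panel shows 1 of the 8 ribosomal protein peaks of smallest p, with accessibility in RPKM by library (points) and the mean and SD of 3 libraries (bars); titles give the assigned gene and the distance from its start. The groups do not overlap in any panel, and Rpl7, Rpl36 and the second Rpl31 peak are lower in refed liver.

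Rpl31, a large-subunit gene, had 10 peaks, and those with the largest log2 changes lay inside its neighbours. Upstream, 6 peaks fell in introns of Npas2, which encodes a partner of BMAL1 in the circadian clock and a paralog of CLOCK. Downstream, 3 peaks fell in introns of Tbc1d8. The start-site peak of Rpl31 itself stood at 48.0 ± 1.97 RPKM in fasted and 47.6 ± 2.13 in refed liver, with a log2 change of -0.01 ± 0.10.

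The farthest upstream peak (chr1:39345306-39345656, intron 3 of 20 of Npas2, 79215 bp from the Rpl31 start) had 9.98, 2.67 and 6.97 RPKM in fasted and 19.1, 23.8 and 21.3 in refed libraries, without overlap. Its log2 change of 1.90 ± 0.44 (SE) had a limma adjusted p of 0.0548. The authors' deposited edgeR table gives this peak an FDR of 9.29e-05. The adjusted p was 0.00754 in edgeR and 0.0295 in DESeq2, 0.0202 in limma without fasted replicate 1, 0.0454 once fasted replicate 3 was left out, and ranged from 0.00754 to 0.179 over 13 alternatives. The libraries held 3 to 17 reads there in fasted and 27 to 35 in refed liver. All 6 peaks within Npas2 had a log2 change above 0, from 0.43 to 1.90, and 0 passed the limma test. For 4 of the 6, which were singled out after their values were seen, unadjusted p was under 0.05, as for 16.6% of all peaks beyond 1 kb.

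Farthest downstream, the peak in intron 2 of 19 of Tbc1d8 (chr1:39474480-39475077) had 12.1, 16.2 and 16.8 RPKM in fasted and 4.40, 6.71 and 4.29 in refed libraries. The refed values were all lower (log2 change -1.56 ± 0.38 SE, limma adjusted p 0.0666). It passed in edgeR (adjusted p 0.00325) and DESeq2 (0.0111), and the adjusted p ranged from 0.00325 to 0.238 over 13 alternatives. In the authors' deposited edgeR table its FDR is 4.58e-05. The other 2 peaks in Tbc1d8 had log2 changes of -0.63 ± 0.33 and 0.15 ± 0.32. Named here after its value was seen, the promoter peak assigned to Npas2 itself (chr1:39249152-39251235) rose from 18.5 ± 3.73 to 37.3 ± 3.90 RPKM (log2 change 1.02 ± 0.19 SE, limma adjusted p 0.0213). The assignment to Rpl31 of the 9 peaks inside its neighbours follows distance to a start alone.

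**Figure D5:**
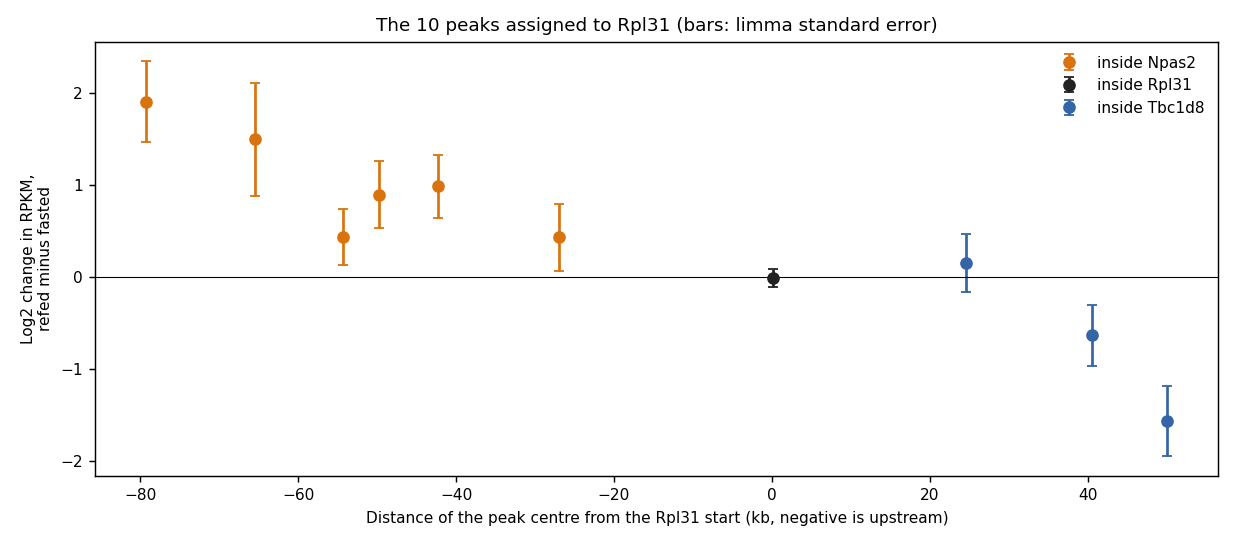
The log2 change (refed minus fasted, with limma's standard error) of the 10 peaks assigned to Rpl31 is plotted by distance from its start in kb, coloured by the gene they lie in. The 6 peaks within Npas2 lie between 0.43 and 1.90, the Rpl31 start at -0.01, and the peaks within Tbc1d8 between -1.56 and 0.15.

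Of the 8 peaks of smallest p, 3 more had higher values in refed liver without a limma call. A peak at 10403 bp from the start of Rps23, a small-subunit protein at the decoding centre, lies in the ORR1D1 internal sequence of a MaLR repeat (chr13:91072995-91073265). It had 6.09, 6.91 and 6.32 RPKM in fasted and 15.9, 13.7 and 15.8 in refed libraries. The groups were far apart (log2 change 1.23 ± 0.33 SE, limma adjusted p 0.0930). Over the alternatives the adjusted p was 0.0515 to 0.298, except in DESeq2, which gave none for this peak. The peak assigned to Rpl9 (chr5:65762870-65763185) lies in intron 1 of 4 of Klb, the β-Klotho gene, whose product is the co-receptor for the hormones FGF15 and FGF21, within an RSINE1 repeat of the B4 family. It had 3.91, 6.91 and 5.42 RPKM in fasted and 15.9, 13.7 and 11.5 in refed libraries. All refed values were above the fasted ones (log2 change 1.36 ± 0.39 SE, limma adjusted p 0.110), and edgeR gave an adjusted p of 0.0399. Its range over the alternatives was 0.0399 to 0.284, again without DESeq2, which gave none. The authors' deposited table lists both, with an FDR of 0.0304 for Rps23 and 0.0130 for Rpl9.

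Within ribosomal protein genes and at their ends, 5 peaks lay beyond 1 kb of the start, of which 0 were called by limma and 3 had an unadjusted p under 0.05, against 1.41% and 16.6% of all peaks beyond 1 kb. By edgeR or DESeq2 none of them had an adjusted p under 0.05. The strongest lay in intron 5 of 6 of Rps7 (chr12:29317232-29317431), a small-subunit protein also known to bind MDM2. It had 7.22, 18.7 and 9.78 RPKM in fasted and 20.4, 34.0 and 21.4 in refed libraries, with the lowest refed value just above the highest fasted one. The log2 change was 1.16 ± 0.34 (SE, limma adjusted p 0.119, and 0.0290 to 0.439 over 13 alternatives). The peak at the end of Rps6, the S6 protein phosphorylated by S6 kinases, had 26.1 ± 6.47 RPKM in fasted and 16.1 ± 1.48 in refed liver (log2 change -0.67 ± 0.22 SE, limma adjusted p 0.159). Rps4x and Rps19 had log2 changes of -0.52 ± 0.31 and 0.31 ± 0.31.

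Peaks far from any start made up most of the remainder at 2 genes. Of the 15 peaks assigned to Rps29, 12 lay beyond 200 kb, each in a repeat, with a median of 1.20 RPKM, and 4 of these held no read in any library. Of those assigned to Rplp1, 14 lay beyond 70 kb with a median of 18.1 RPKM. Of these, limma called 0, and 1 had an unadjusted p under 0.05, against 1.41% and 16.6% of all peaks beyond 1 kb. In all, 7 member peaks were empty in each library (4 at Rps29, 2 at Rpl10l and 1 at Rpl34), and 35 carried a repeat annotation. No peak was centred at the start of 4 genes. These were Rpl10l, a testis-expressed retrogene of Rpl10, Rpl32l, Rpl34 and Rps28. The single peak assigned to Rps28 stood at 50.4 RPKM in an exon of Kank3, 6772 bp from the start. Coding sequence of ribosomal protein genes has many processed copies in the mouse genome, and because unique reads were kept, openness over such stretches may be undercounted. This was not tested.

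Lists of other genes of ribosome function are read against the 1.23% of all peaks called by limma and the 14.5% with an unadjusted p under 0.05. Mitochondrial ribosomal protein genes, which build the separate ribosome of that organelle, had 139 peaks at 67 genes with 0 called in limma, 15 at an unadjusted p under 0.05, 1 in edgeR and 0 in DESeq2. Other TOP genes, among them elongation and initiation factors, had 53 peaks at 16 of 19 genes, and ribosome biogenesis factors 75 peaks at 41 of 48. In both lists 0 were called in limma, edgeR and DESeq2, with 2 and 5 at an unadjusted p under 0.05. Ribosomal proteins outside the symbol rule had 14 peaks at 3 of 5 listed genes, with 0 called by each tool and 0 at an unadjusted p under 0.05. Translation factors (29 of 32 genes) had 1 limma call among 73 peaks, 9 at an unadjusted p under 0.05, 2 in edgeR and 1 in DESeq2. S6 kinases (8 of 8 genes) had 1 limma call among 18 peaks, 5 at an unadjusted p under 0.05, 2 in edgeR and 0 in DESeq2. An intergenic peak at -4266 bp from Eif1, which governs start-codon choice, fell from 35.1 ± 2.40 to 18.0 ± 6.09 RPKM (log2 change -1.01 ± 0.22 SE, limma adjusted p 0.0423, edgeR 0.0326). A peak in intron 1 of 21 of Rps6ka1, which encodes the kinase RSK1 acting on S6, rose from 12.3 ± 4.53 to 27.1 ± 1.54 RPKM (1.20 ± 0.26, limma adjusted p 0.0452, edgeR 0.0315). At start sites, where the lists had 3 to 61 peaks each, 0 were called by limma, against 0.487% of all start-site peaks. With so few peaks, a count of 0 is near that share. The median changes of the 6 lists at start sites ran from -0.15 to 0.01.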

How the data were processed

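ATAC-seq was done on nuclei from fresh liver, 3 fasted and 3 refed libraries grouped by the titles in the labels. The submitters' processing notes name mm9 and, among tools, Bowtie2, MACS2, HOMER, SAMtools, cutadapt, FastQC and DESeq2. Settings and any read shift were not given in the sources used here. Duplicates were removed and unique reads kept, per the file headers. The authors' deposited RPKM values (reads scaled to peak length and to library reads in peaks) and their log2 cover 1 merged peak set, so the scale hides any difference in how much of a library fell in peaks. An empty peak holds the value of 0.9 reads, which makes fold changes at low peaks smaller. The authors' deposited ratio of group means and unadjusted p-value per peak, and the pooled RPKM of each group, were not used. The deposited edgeR table gives the authors' read counts, FDR (q-value) and log2 fold change at 3314 of the 74076 peaks. It rests on the same 6 libraries, so its FDRs are not separate evidence for a peak. At the peaks quoted above they were lower than the adjusted p of the edgeR fit described below. The authors' group means of counts there (signal values) were not used.

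The steps of the RPKM values gave back whole reads (tolerance 0.01 reads) for 100% of peaks, identical to the authors' counts at all 3314 peaks. The test was limma 3.58.1 in R 4.3.3 (lmFit, eBayes with an intensity trend) on log2 RPKM of all 74076 peaks, refed minus fasted, with no filter, pseudocount or covariate, Benjamini-Hochberg adjustment over all peaks and a threshold of 0.05. EdgeR 4.0.16 (quasi-likelihood, TMM, filterByExpr), which called 4.01% of 61067 peaks, and DESeq2 1.42.0 on recovered reads, other scalings and filters, and leaving out each library in turn were the 13 alternatives. The pipeline was tested on simulated data.

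Members, lists and definitions were chosen with earlier results of these data known. Peaks were named by this rule: those called, then those of smallest p up to 8 in all, the 6 promoter-class peaks of highest and the 4 of lowest mean RPKM, and called peaks of the lists. Other peaks given with values were chosen after these were seen. Promoter sequences are RefSeq's, and motifs were searched on both strands (the pyrimidine tract on the gene's strand only). Symbols follow the nearest start, and coordinates are 1-based mm9. Some genes are not reported here by name; they remain in every count.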

Additional observations from a re-analysis of the deposited data

How the results depend on the processing

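Of the ribosomal protein peaks, limma called 1 higher and 2 lower in refed liver. Counts of higher calls were 3 with edgeR, 2 with DESeq2, 2 with median centring, 2 with peaks of a mean of at least 10 reads, 0 with log2(RPKM + 1), 0 with quantile normalization and 0 in limma without a trend; leaving out a library gave 0 to 2. Counts of lower calls were 3 with median centring, 3 with peaks of a mean of at least 10 reads, 2 with log2(RPKM + 1), 1 with edgeR, 1 with DESeq2, 0 with quantile normalization and 0 in limma without a trend; leaving out a library gave 0 to 2. Without the trend limma called 0 of all 74076 peaks. The median log2 change of promoter-class peaks was -0.016, -0.052 with median centring, and -0.056 to -0.00069 when a library was left out; it stayed below 0 under all 13 alternatives. None of the 8 peaks of smallest p changed sign. The cause of these shifts was not tested. No paired analysis was possible because the groups share no replicate number. The median was 20.1 reads per library at peaks beyond 1 kb and 134 at start sites.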
